A study of Mus musculus with 1 sample.

Results

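The genes of motile cilia and of intraflagellar transport (IFT) were examined in mixed glia of the mouse ventral midbrain (VM). The choice of members was made with earlier results of these data known. It took, by gene symbol, all genes of the Dnah, Dnaic or Dnai, Cfap, Rsph, Tekt, Drc and Ift series. Added to these were Foxj1, Ccdc39, Ccdc40, Hydin, Tmem212, Mcidas and Spag6. This gave 65 genes of the 23282 rows in the table. Of these, 48 encode or are named for parts of the motile axoneme, 14 are IFT genes, and 3 (Foxj1, Mcidas and Tmem212) belong to neither class. The study asked how inhibition of serum- and glucocorticoid-regulated kinase 1 changes glia, and 1 library of its control group is described here. The cells came from outbred ICR (CD-1) pups on postnatal day 5 and were cultured and passaged in serum-containing medium. They carried no labelled genetic change, and the study describes its controls in this experiment as treated with the vehicle DMSO. Inhibitor-treated cultures were not analysed here. There was 1 library and therefore no replicate, so no value carries an error between cultures, no test was made, and a difference between genes holds for this library.

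A cilium is a microtubule-based projection of the cell surface. Most cell types, astrocytes included, can grow a single immotile primary cilium, which serves hedgehog signalling, whereas ependymal cells that line the brain ventricles carry many motile cilia. Motile axonemes add dynein arms, radial spokes, nexin links and a central pair of microtubules, and IFT trains carry cargo along both kinds of cilium. Levels of different genes were compared on a length-scaled level, and counts are given beside it. The length-scaled level is the normalised read count per 1000 exon bases and per 1000000 of the sum of all counts. The sum was 27569507 in this library. A gene was called detected at a normalised read count of 10 or more. By this rule 67.2% of all rows were detected, the share to set beside each count of detected genes below.

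Every IFT gene was detected, whereas axonemal genes spread from 0 to levels above the highest IFT gene. Detection covered 14 of 14 IFT genes and 43 of the 48 axonemal genes (89.6%), beside 67.2% of all rows. The median length-scaled level was 8.12 for IFT genes and 0.742 for axonemal genes, so that the IFT median was 10.9 times higher. For orientation, the median was 1.12 over all rows with an exon length and 3.72 over detected rows. The latter was exceeded by 11 of 14 IFT genes and by 14 of 48 axonemal genes (29.2%), beside 33.8% of all rows with a length. The axonemal share was thus close to that of the whole table.

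The classes overlapped. Of the axonemal genes, 25 were below the lowest IFT gene, 21 were within the IFT range and 2 were above the highest IFT gene. The IFT levels differed 50.4-fold from lowest to highest, while the detected axonemal genes differed 2714-fold. The 10.9-fold difference depended on the scale and on the genes included. On undivided counts the IFT median was 4.78 times the axonemal median, with 928 against 194.

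**Figure D1:**
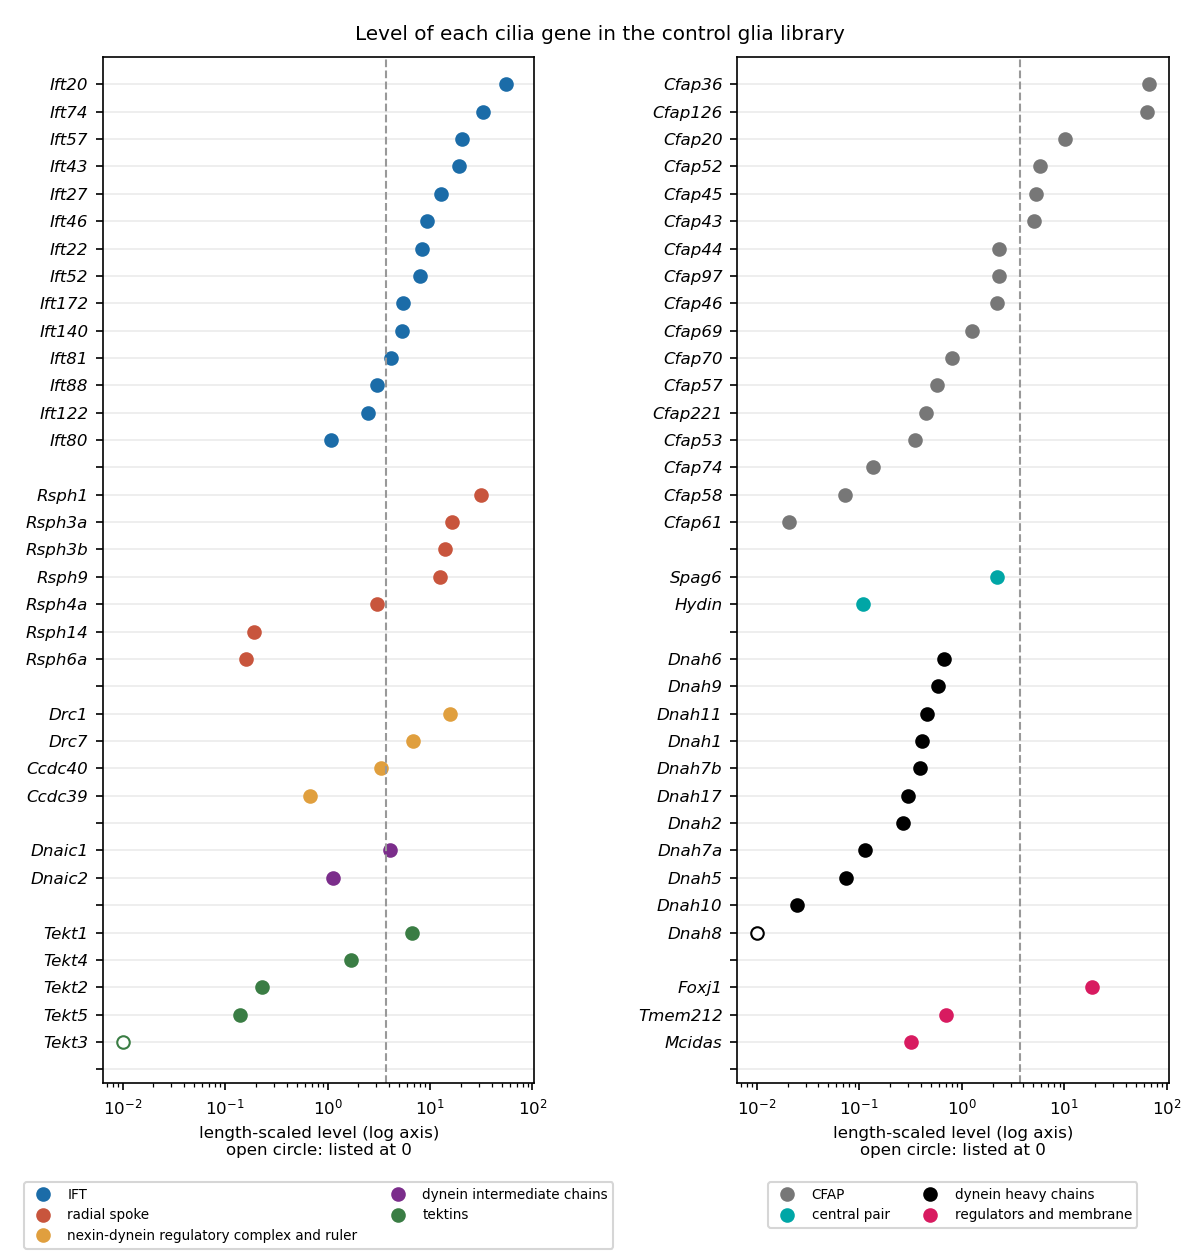
Length-scaled level (log axis) of each of the 65 genes in the control library, by role. Each point is 1 gene in 1 library, open circles stand for genes listed at 0, and the dashed line is the median of detected rows (3.72). IFT genes lie between 1.09 and 54.9, and all 11 dynein heavy chains lie under 0.7.

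**Figure D2:**
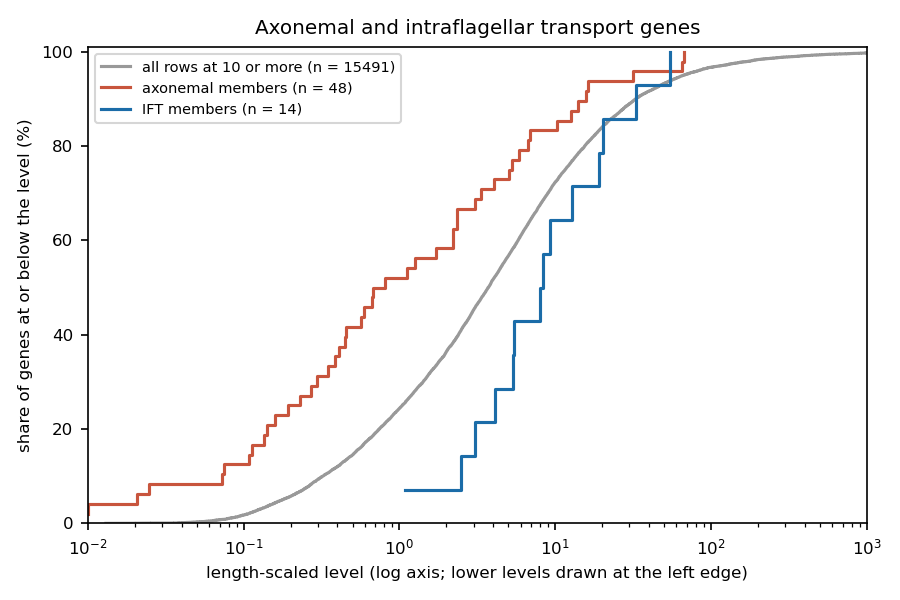
Share of genes (%) at or below each length-scaled level (log axis) for the 14 IFT genes, the 48 axonemal genes and the 15491 rows at 10 or more that have an exon length. The axonemal curve lies left of the curve of all detected rows over most of its course (median 0.742), and the IFT curve starts at 1.09.

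IFT trains are built of an IFT-A and an IFT-B complex. IFT-A, which serves return transport and the entry of membrane proteins, was represented by 3 genes. Ift43 had a normalised read count of 864 and a level of 19.0, Ift140 a count of 1230 and a level of 5.35, and Ift122 a count of 706 and a level of 2.48. The small subunit gene thus had the highest level of the 3 although Ift140 had the highest count.

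The core of IFT-B, which binds tubulin and other cargo, was represented by 7 genes. Ift74 led with a count of 2411 and a level of 32.9. Its tubulin-binding partner Ift81 had a count of 663 and a level of 4.12. Ift27, a Rab-like small GTPase, had a count of 1013 and a level of 12.8, and Ift22, another Rab-like GTPase, a count of 825 and a level of 8.29. Ift46 was at 1647 (level 9.31) and Ift52 at 614 (level 7.95). Ift88, whose loss abolishes cilia in mice, was the lowest of the core genes at 388 (level 3.04). Exons of Ift88 overlap the antisense gene Ift88os.

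Peripheral IFT-B subunits held both ends of the range. Ift20, which also acts at the Golgi apparatus, had the highest level of all IFT genes at 54.9, with a count of 2307. It lies on chromosome 11 (78536361 to 78541737 in GRCm38, plus strand), clear of exons of any other gene. Ift57 was at 1604 (level 20.3), and its exons overlap Gm15518 on the opposite strand. Ift172 was at 992 (level 5.44). Ift80 was lowest at 373 (level 1.09), and with the longest annotated transcript in place of all exons its level was 1.78. Even this lowest IFT gene lay above 49.6% of all rows that have an exon length, and Ift20 lay above 95.8%.

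Further IFT subunits filed under names of their own were also detected in 9 of 9 cases, with a median level of 3.10. Cluap1 was highest at 31.6 and Ttc30a1 lowest at 0.731. Ttc30a1, Ttc30a2 and Ttc30b are like-named genes on chromosome 2. How much sequence they share, and so how reads divide between them, was not examined. The train motors were detected in 12 of 12 cases with a median level of 11.9, led by the light chains Dynlrb1 at 207.7, Dynlt1b at 193.0 and Dynlrb2 at 54.5. Dynlrb1 and Dynlt1b also serve cytoplasmic dynein, and Dynlt1b belongs to a cluster of close copies that includes Dynlt1a, so its reads may be shared. Among the kinesin-II subunits, Kif3a was at 26.3. The heavy chain of the return motor, Dync2h1 (added once its level was known), was at 0.783, and the accessory motor Kif17 was lowest at 0.214.

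Dynein heavy chains, the motor subunits of the axonemal arms, had the lowest median of the families with over 5 genes. Of 11 genes, 10 were detected, and their median level was 0.297. Their median exon length was 15637 bases, the longest of the families. In the outer arms, Dnah9 had a count of 260 (level 0.591), Dnah11 181 (0.454), Dnah17 132 (0.297) and Dnah5 32 (0.0742). Dnah8, an outer arm chain of the sperm tail, was listed at 0. The level of Dnah9 was 1.30 times that of Dnah11. Dnah5, a defining chain of outer arms in motile cilia, was the lowest of the outer arm chains above 0.

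In the inner arms, Dnah6 was highest with a count of 245 (level 0.671), and it lies on chromosome 6 (73017606 to 73221651, minus strand). Dnah1 was at 147 (0.409) and Dnah2 at 111 (0.269). Dnah10, the partner of Dnah2 in the double-headed inner arm, was near the detection minimum at 11 (0.0248). Dnah7b and Dnah7a were at 214 (0.389) and 40 (0.114), but 99.4% and 99.8% of their transcripts match another Dnah7 copy at 95% identity or more. The division of reads between these copies is therefore uncertain, and their counts add up to 254. Exons of Dnah1, Dnah2, Dnah6, Dnah8, Dnah9, Dnah10, Dnah11 and Dnah17 overlap genes on the opposite strand.

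On the length-scaled level, the intermediate chains of the outer arm lay above every heavy chain. By count, Dnaic1 still led, but Dnaic2 lay below several heavy chains, such as Dnah9 at 260. Dnaic1 had a count of 309 and a level of 4.03, and Dnaic2 a count of 141 and a level of 1.12. Exons of Dnaic1 overlap Enho on the opposite strand. Other arm and docking genes were detected in 9 of 10 cases, with a median level of 2.13. Dynlt1a was at 29.1, but as a close copy of Dynlt1b it shares the limits given for that gene. Dnali1, a light chain of inner arms, was at 9.40 and Dnal4 at 6.31, while Nme8 was listed at 0. Factors that assemble dynein arms in the cytoplasm were detected in 9 of 10 cases, with a median of 1.74. Heatr2, filed as Dnaaf5, was highest at 7.40, and Pih1d3 was listed at 0.

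Radial spokes, which pass signals from the central pair to the dynein arms, had the highest median of the axonemal families, 12.6 over 7 genes, and all 7 were detected. Rsph1, a spoke head gene, had a count of 1194 and a level of 31.6 (chromosome 17, 31255019 to 31277383, minus strand). Rsph9, also of the spoke head, was at 558 (12.6), and Rsph4a, the spoke head gene of motile cilia, was at 309 (3.07). Rsph3a was at 1348 (16.2) and Rsph3b at 1202 (14.0). These are near-identical genes that share 98.2% and 97.9% of their transcripts with other genes at 95% identity or more, so each count is uncertain and their sum was 2550. In alternatives added after the data were seen, taking them as 1 summed entry gave a family median of 7.85 over 6 genes, and without them the median of the other 5 was 3.07, below that of the nexin and ruler genes (5.12). Exons of both also overlap genes on the opposite strand. Rsph14 was at 16 (0.193). Rsph6a, the testis paralog of Rsph4a, was at 11 (0.160).

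The nexin-dynein regulatory complex links neighbouring microtubule doublets. Its genes Drc1 and Drc7 had counts of 1172 and 568, with levels of 15.8 and 6.90. The proteins of Ccdc39 and Ccdc40 form a ruler that sets the axonemal repeat, and they work as a pair. Ccdc40 had a count of 556 and a level of 3.34, while Ccdc39 had a count of 138 and a level of 0.673. Ccdc39 exons overlap Ttc14 on the opposite strand, and with the longest transcript as length its level was 1.39.

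The central pair was represented by a gene of low level and one above the axonemal median. Hydin, a very large gene whose loss causes hydrocephalus in mice, had a count of 54 and a level of 0.109. Spag6 had a count of 207 and a level of 2.21. RefSeq lists Spag6 also as an older name of Spag6l on chromosome 16, and with the exon length of that gene the level was 1.65. The row named Spag6l had a count of 5. Exons of Hydin overlap Gm26832, and those of Spag6 overlap Gm20539. Other central pair and spoke genes were detected in 11 of 13 cases, with a median level of 3.09, and Enkur at 26.1, Nme5 at 25.5 and Meig1 at 10.4 were highest. Spag16 was lowest, with a count of 1.

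Tektins are filaments inside the doublet microtubules. Tekt1 had a count of 301 and a level of 6.73. Tekt4 was at 94 (1.71) and Tekt2 at 12 (0.229), and exons of Tekt2 overlap Gm12945. Tekt5 was under the detection minimum at 7 and Tekt3 was listed at 0. Tekt3, Tekt4 and Tekt5 are best known from the sperm tail.

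The CFAP genes share a name for cilia and flagella associated proteins and not a single function. Their median level was 2.22 over 17 genes, of which 15 were detected. Cfap36, which encodes a binding partner of the small GTPase Arl3 in cilia, had the highest count of all 65 genes, 5093, and the highest level, 67.3 (chromosome 11, 29221532 to 29247409, minus strand). Cfap126, also known as Flattop, followed with a count of 3173 and a level of 64.9 (chromosome 1, 171113918 to 171126967, plus strand). The levels of this leading pair differed 1.04-fold. Cfap20, a doublet protein of motile and primary cilia, was at 1256 (10.2).

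Among proteins inside the doublet microtubules, Cfap52 was at 372 (5.82), Cfap45 at 830 (5.27) and Cfap53 at 25 (0.349). Cfap43 and Cfap44, which tether an inner dynein arm, were at 982 (5.05) and 541 (2.34). Of the central pair proteins, Cfap46 was at 564 (2.22), Cfap69 at 276 (1.27), Cfap221 at 36 (0.448) and Cfap74 at 37 (0.135). Cfap97 was at 331 (2.33), Cfap70, a protein of the outer arm, at 96 (0.812) and Cfap57 at 63 (0.568). Cfap58 at 7 and Cfap61, a protein of the spoke base, at 6 were not detected. Exons of Cfap43, Cfap45, Cfap52, Cfap61, Cfap74 and Cfap97 overlap other genes.

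Of the 65 genes, 5 fell short of the detection minimum: Tekt3, Dnah8, Cfap61, Cfap58 and Tekt5. Just above it were Dnah10 and Rsph6a at 11, Tekt2 at 12 and Tmem212 at 14. The exons of 23 of the 65 genes overlap another annotated gene, 21 of them axonemal. Without such genes in either class, the ratio of the axonemal to the IFT median was 0.156, against 0.0914 with them. The part of reads from overlapping genes in single counts was not tested.

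Level ran with exon length among the members. Spearman's rho between exon length and level was -0.45 across the 48 axonemal genes and -0.85 across the 14 IFT genes. It was -0.27 across the 37 axonemal genes that are not heavy chains and -0.23 across the 15491 detected rows. These are descriptions across genes of 1 library, and exon length itself enters the level. With the 35 axonemal genes whose exon length lay inside the IFT range of 1525 to 12428 bases, the axonemal median was 2.22, or 0.273 of the IFT median. Every dynein heavy chain lay outside this range, so length and gene family were not separated. The part of transcript length in the low heavy-chain levels was not tested.

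**Figure D3:**
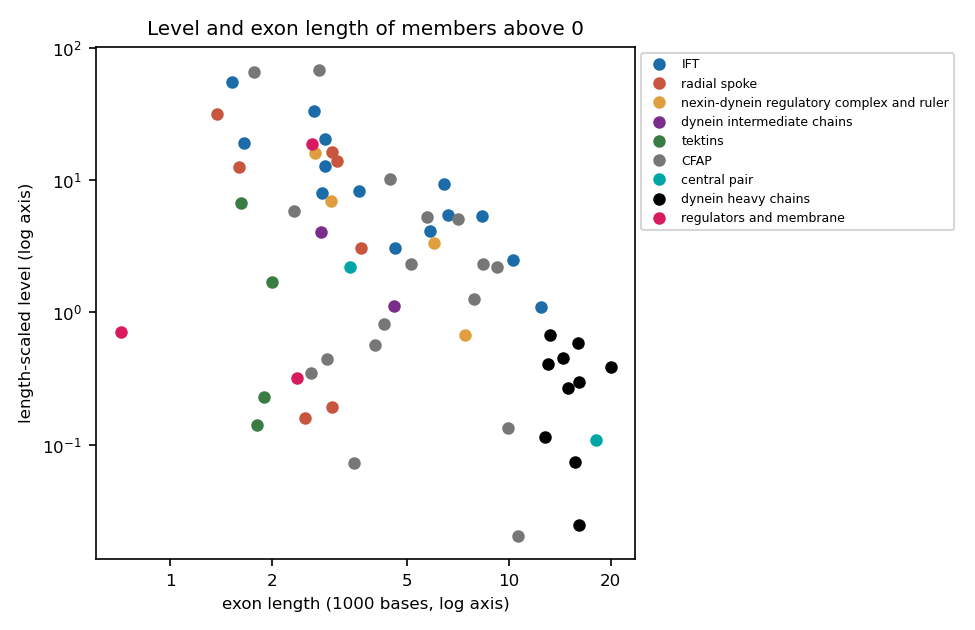
Length-scaled level against exon length (1000 bases), both on log axes, for the 63 members above 0, coloured by role, 1 point per gene. Dynein heavy chains sit at the long and low end, and at lengths shared with IFT genes axonemal genes are found both among and far below them.

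The transcription factor Foxj1 drives the genes of motile cilia, and Mcidas acts before it, together with E2f4 or E2f5, in cells that form many cilia. Foxj1 (chromosome 11, 116330704 to 116335399, minus strand, no exon overlap with other genes) had a count of 1353 and a level of 18.7, which was 25.2 times the axonemal median and above 88.5% of rows with a length. Mcidas had a count of 21 and a level of 0.321. Tmem212, a membrane protein gene used as an ependymal marker, was at 14 (0.709). Other genes of the multicilia programme were detected in 12 of 15 cases (80%, beside 67.2% of all rows) with a median level of 1.25. E2f4 at 19.7, E2f5 at 9.42 and Cep63 at 3.39 were highest, all of which act in dividing cells as well. Gmnc, which stands at the head of the programme, was lowest with a count of 3. Deup1, a gene of centriole amplification filed as Ccdc67 and added once its level was known, stood at 0.329. The level of Foxj1 thus stood above those of Gmnc (0.0190) and Mcidas, which precede it.

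The promoters of members were searched for the X-box, the site of the RFX family of transcription factors, which act with Foxj1 on ciliary genes. It was written as GTTNCC, then 0 to 3 bases, then GNAAC, on either strand. RefSeq promoter windows on GRCm38.p6, from 250 bases before to 50 after a gene's start, matched 57 of 65 members. An X-box was present in 10 of 44 axonemal genes (22.7%) and in 2 of 11 IFT genes (18.2%), against 2.05% of all 27025 genes with a window. The half-site GTTNCC alone, which the X-box contains, was present in 33 of 44 axonemal genes (75%) and 11 of 11 IFT genes, against 48.8% of all genes. A FOX site, written TGTTTAC, was present in 4 of 44 axonemal genes (9.09%), against 4.05% of all genes, and in 0 of 11 IFT genes. Median GC content was 55.7% in axonemal, 56.7% in IFT and 52.7% in all windows. These are matches of letters and not tests of binding.

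The X-boxes that lie before the start of a member are shown because both classes held this match more often than other genes did. They are printed along the gene's strand, with the match in capitals and up to 8 bases on each side.
Hydin: actctgcgGTTGCTGTGGCAACagatggt
Cfap44: ggagggacGTTGCTATGGCAACcgcagtaa
Cfap45: gttcttggGTTGCTATGGTAACgcgtc
Dnaic1: gcctgtcgGTTGCTGGGTAACcgcgtc
Dnaic2: cggccaggGTTGCTAGGCAACtggtaaac
Tekt2: agggggcgGTTGCTCGGCAACcagagccg
Dnah9: ttccaccaGTTTCCCAGCAACaacgacgc
Ift57: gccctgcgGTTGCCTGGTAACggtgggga
Ift46: ccgactcaGTTGCGGAAACcatagata

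The printed stretches of Hydin (chr8:110266948-110266976), Cfap44 (chr16:44394764-44394793), Dnaic2 (chr11:114727378-114727406), Tekt2 (chr4:126325697-126325725, minus strand) and Dnah9 (chr11:66168613-66168641, minus strand) hold their match outside the GENCODE gene. The matches of Cfap45 (chr1:172521103-172521129), Dnaic1 (chr4:41569767-41569793) and Ift57 (chr16:49699226-49699254) touch an annotated exon, and that of Ift46 (chr9:44772849-44772875) lies in an intron of another transcript. All printed stretches but those of Tekt2 and Dnah9 are read along the plus strand, which is the strand of their gene. The search took the site in either direction, so a match can hold it reversed. The matches end 5 bases before the RefSeq start in Cfap45, 6 in Dnaic1, 7 in Hydin, 13 in Cfap44, 20 in Dnaic2, 47 in Ift57, 58 in Tekt2 (counted from 1 of its 3 starts), 69 in Dnah9 and 141 in Ift46. Those of Cfap61, Rsph3b and Tekt4 reach into the transcribed part and are not printed.

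Presence of an X-box did not separate high from low members. The 10 axonemal genes with the match had a median level of 1.41 and ran from 0.0205 (Cfap61) to 14.0 (Rsph3b), and 9 were detected. The 34 without it had a median of 0.620 and ran from 0 to 67.3 (Cfap36), and 30 were detected. The ranges overlapped over the whole span of the first group.

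Genes of the ciliary base and membrane, which primary and motile cilia share, were detected throughout. The BBSome, a coat that moves membrane proteins with IFT trains, had a median level of 3.52 with 9 of 9 listed genes detected. Arl6, the GTPase that recruits it, was at 8.92, its subunit genes Bbip1 at 6.10 and Bbs5 at 4.48, and Bbs1 was lowest at 1.09. The transition zone, the gate at the ciliary base, had a median of 1.64 with 15 of 15 detected, with B9d1 at 11.2, B9d2 at 6.14 and Tctn1 at 6.07 highest and Nphp4 lowest at 0.438. For the ciliary membrane and hedgehog signalling the median was 2.04 with 11 of 11 detected. The transducer Smo was at 13.7, Adcy3 at 7.78 and Inpp5e at 5.85, and Gpr161 was lowest at 0.271. The hedgehog target Gli1, likewise added, was at 0.784. These medians lay above the axonemal and below the IFT median. Among the genes named here that are not members, exons of Cluap1, Kif17, Dynlt1a, Dnali1, Dnaaf5, E2f5, Cep63, Arl6, Bbip1, Adcy3, Inpp5e, Tctn1, Gli1, Kcnj13, Tcp11 and Tnp1 overlap another gene.

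Marker genes of cell types that bear motile cilia or a flagellum are given beside these values. Of 15 ependymal markers 14 were detected (93.3%, beside 67.2% of all rows), with a median level of 10.7. Of the 12 that are not members 11 were detected (91.7%), with a median of 10.5. Tppp3 was highest at 101.8, followed by Fam183b at 60.1 and Dynlrb2 at 54.5, and Sntn was listed at 0. Other lists share Dynlrb2, Enkur, Meig1 and Ak7 with this one. Of 10 choroid plexus markers 6 were detected (60%, under the 67.2% of all rows), with a median of 0.177. Aqp1 at 5.27, Folr1 at 3.62 and Kcnj13 at 1.03 were highest, the defining marker Ttr had a count of 2, and Kl was listed at 0. Of 10 male germ cell markers, 1 (Tcp11, count 22) was detected and 7 were listed at 0, including the protamines Prm1 and Prm2 and the transition proteins Tnp1 and Tnp2. The remaining pair, Tssk2 and Akap4, had a count of 1 each.

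The labelled glia were checked against their markers. All 8 astrocyte markers (levels 2.45 to 148.1) and all 8 microglia markers (15.4 to 1138) were detected, as were all 8 mesenchymal (6.74 to 437.7) and all 8 oligodendrocyte lineage markers (0.571 to 106.8). Median levels were 128.7 for microglia, 27.0 for mesenchymal, 17.5 for astrocyte and 7.64 for oligodendrocyte lineage markers. The mesenchymal median thus lay above the astrocyte median. Of 8 neuronal markers 6 were detected (75%, beside 67.2% of all rows), with levels from 0 to 24.6 and a median of 0.292, and the highest was Stmn2. Which cells carried the axonemal transcripts was not tested, and in this bulk library few cells with high levels cannot be told apart from many cells with low levels.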

How the data were processed

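RNA of 1 control culture was sequenced from a SMARTer mRNA library. Per the study's methods, reads were trimmed at quality 20, mapped to GRCm38/mm10 with STAR and counted on RefSeq Release 105 exons with HTSeq-count, whereas the submitters' processing notes name TopHat and edgeR. The deposited values, a score that the authors call normalised read counts, were whole numbers. The methods also mention FPKM values, but these numbers were on the scale of read counts, with a sum far above 1000000. How the counts were normalised, the strand setting and the treatment of multi-mapped reads are not given in the sources used here. Read depth is unknown, so no interval or floor is given.

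Rows were matched by symbol or older symbol to GENCODE M21 (GRCm38), which gave exon lengths (union of exons) for 22918 rows (98.4%). This is not the annotation used for counting, and lengths of transcripts in these cells may differ. Shared sequence was sought with BLAST 2.17.0 (95% identity, alignments of 75 bases or more). Tables were handled in pandas 2.3.3 and numpy 2.4.6 under Python 3.11.15, correlations in scipy 1.17.1, and figures in matplotlib 3.10.9. The ratio of medians was run on rows of this library multiplied by a known factor, which it returns by construction. The X-box search was checked on random sequences with planted sites. Length scaling and the matching of symbols were not checked in this way.

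Members and the 17 gene lists were chosen with earlier results of these data known. Named genes were every IFT gene, every gene of families up to 9, the highest and lowest of longer families and lists, and those at 0 or next to the minimum. The remaining dynein heavy chains and CFAP genes were added after their values were seen. 1 gene of the lists is not reported here and enters no list value.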

Additional observations from a re-analysis of the deposited data

How the results depend on the processing

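The axonemal to IFT ratio of medians, 0.0914 as reported, stayed under 1 in each alternative that could change it. It was 0.209 on counts not divided by exon length, 0.160 and 0.311 with the mean of log2(level + 0.1) and log2(level + 1), and 0.156 with detected members only. It ran from 0.0728 without CFAP genes to 0.137 with the IFT subunits of other names added, 0.119 without the Dnah7 copies and 0.120 with the longest transcript as length. Changing the sum left it as it was, by construction. Alternatives chosen after the data were seen gave 0.156 without genes whose exons overlap another gene, 0.273 both without dynein heavy chains and within the exon lengths of IFT genes, 0.0828 without Spag6 and 0.0826 without Cfap36, Cfap20 and Cfap97. Both alternatives that gave 0.273 hold fewer long genes and no dynein heavy chain, so they share most of their genes. The cause of these and the other shifts was not tested. With minima of 1, 3 and 100, detected axonemal genes numbered 46, 46 and 30, and detected IFT genes 14 each time. Of all 23282 rows, 18207, 17215 and 12015 reached these minima. In the 200 bases before the start, the X-box was found in 15.9% of axonemal and 18.2% of IFT genes, against 1.53% of all genes. No paired analysis was possible because there was 1 library. The lack of a replicate and the unknown normalisation limit all values.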
